A study of Rattus norvegicus with 42 samples.

Results

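The first day of reloading was studied in the soleus, a slow postural muscle of the rat hindlimb. Soleus libraries of 3 rats (U18, U20 and U21) that had spent 7 days with the hindlimbs unloaded and then 24 hours back on their feet (group R1) were compared with soleus libraries of 3 control rats (U6, U7 and U8) that were never unloaded. These are 6 of the 42 libraries of the series, which holds soleus and EDL (extensor digitorum longus, a fast muscle) from 21 mature Wistar rats in 7 groups of 3. Besides the controls, which moved freely, these are rats suspended by the tail for 1, 3 or 7 days (D1, D3, D7) and rats let down after the full week for 1, 3 or 7 days (R1, R3, R7). No group carried a transgene or a drug, and the muscle of 1 side of each rat was used for RNA. CAGE (cap analysis of gene expression) sequences the 5′ ends of capped RNAs, so a tag marks where a transcript starts, and tags that start close together on a strand form a transcription start site (TSS) peak. Of 9971 deposited peaks, 9969 remained without the mitochondrial genome, and 9844 had enough tags in the soleus libraries to be tested. The deposited files pair no peak with a gene and give positions on Rnor_6.0, for which no annotation was used here. Peaks are therefore described by position, and the cell types and gene groups behind them, the identity of the muscle by its markers included, were not analysed here.

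Unloading takes away the tonic load under which soleus fibres work, and the muscle loses mass. When the animal stands again, the weakened fibres contract under body weight, which is known to damage some of them, to start stress and growth responses and to bring immune cells into the tissue within a day. In a bulk sample, a changed number of cells of a type and a changed amount of RNA per cell cannot be told apart. The level of a peak is given below as CPM, the tag count scaled to the total of the tags in peaks of that library after TMM scaling.

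The control libraries held 6823879 to 13916386 tags in peaks and the R1 libraries 10967115 to 15973060. Control U7 stood apart: 64.5% of its tags lay in peaks against 82.7% to 87.8% in the other 5 libraries, and 88.0% of its 3337530 tagged positions held a single tag against 63.6% to 73.8%. Lane 1 of the sequencer held the 6 control libraries and lane 4 the 6 R1 libraries, EDL included. Within the 6 soleus libraries compared, lane and group therefore cannot be told apart. Lane 1 also held soleus D1 of rat U24, and lane 4 soleus R3 of rat U4.

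After 24 hours of reloading 1447 of 9844 tested peaks (14.7%) stood higher than in control and 847 (8.6%) lower. A peak was called when it changed more than 2.38-fold (the cutoff of the study) with an adjusted p below 0.05 in edgeR's quasi-likelihood test, Benjamini-Hochberg adjustment over all tested peaks. Peaks that rose took 2.24% to 2.52% of the peak tags in the 3 controls and 11.9% to 24.1% in the 3 R1 libraries. Peaks that fell took 15.1% to 19.5% in the controls and 3.88% to 8.25% in R1. The median log2 fold change was 2.21 among the rises (quartiles 1.62 and 3.95) and −1.68 among the falls (quartiles −2.27 and −1.45), while over all tested peaks it was 0.05. On the log2 scale 256 rises and 34 falls exceeded 5. Of all rises 74 had no tag in any control, and their fitted size follows their R1 level. The entry rule described below also favours low control levels among rises. Nothing is therefore read from the balance of 256 and 34. In 1434 of the rises and 778 of the falls the control and R1 libraries did not overlap, against 55.8% of all tested peaks.

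The share of rises depends on how a peak entered the table. A deposited peak had to reach a normalized height of 10 in at least 1 library, and 624 of the 1447 rises (43.1%) reached 10 CPM in soleus R1 libraries and in none of the other libraries of the series. Of the 827 tested peaks of this kind 624 rose and none fell. Among the 9017 tested peaks that were not of this kind, 823 (9.13%) rose and 847 (9.39%) fell. The kind is defined by high R1 levels, so leaving it out takes away rises and no falls. Of the falls, 5 (0.59%) reached 10 CPM in soleus control libraries alone, and these were kept. The remaining shares are thus no unbiased balance of rises and falls. Scaling moved the balance as well: with the plain totals of peak tags as library sizes the median log2 fold change of all peaks shifted to 0.30, and 79.0% of the calls were rises in place of 63.1%. With the tags at all positions as library sizes, a setting chosen after seeing the data, the share was 84.2% and the median 0.42. When lane was added as a term to a model of both muscles, the calls dropped from 2375 to 10, and the median standard error grew from 0.37 to 1.01. Over all 9944 peaks of that fit, 734 had an unadjusted p under 0.05. Of the 2294 calls of the soleus fit, 2289 were tested with lane. Among these 2157 kept the direction of their call, and 518 had an unadjusted p under 0.05.

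**Figure D1:**
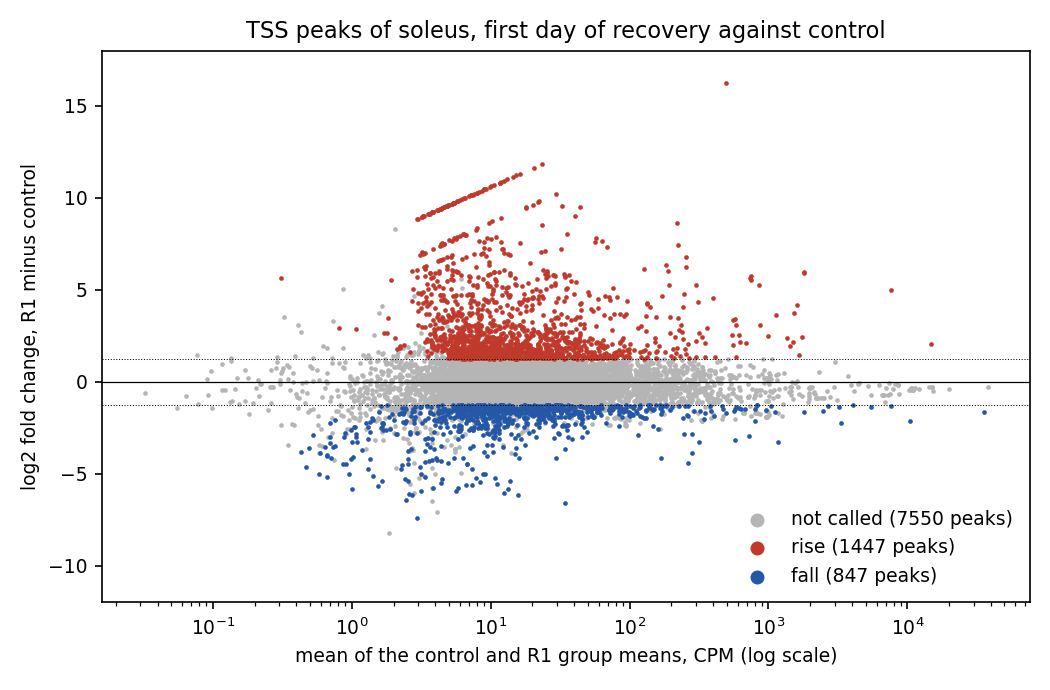
Each point is a tested TSS peak of soleus, with the mean of the group means in CPM (log scale) on the x axis and the fitted log2 fold change, R1 minus control, on the y axis; dotted lines mark the 2.38-fold cutoff in both directions. The 1447 rises are in red and the 847 falls in blue. The straight rows of red points at the top are peaks with no or few control tags, whose fitted value follows their R1 level. The reach of rises and falls on the y axis is therefore not compared.

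The R1 libraries did not lie equally far from the controls at the called peaks. Rat U18 was the farthest from the controls in 1118 of the 1447 rises, U20 in 225 and U21 in 104. The median log2 ratio of a library to the control mean over the rises was 2.59 in U18, 1.89 in U20 and 1.88 in U21. Among the falls U18 was the farthest in 387, U20 in 325 and U21 in 135. The same counts over all tested peaks are not given here. U18 also had 82.7% of its tags in peaks, against 87.3% in U20 and 87.8% in U21. Of its tagged positions 72.0% held a single tag, against 63.6% and 64.1%. A stronger response of this rat and a property of its library were not told apart.

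The rises with the largest gain in level were peaks that control muscle already used. The peak at chr8:55178466-55179112 on the + strand stood at 6272, 5581 and 5442 CPM in the controls U6, U7 and U8 and at 30732, 24179 and 16389 CPM in the R1 rats U18, U20 and U21. It was among the strongest starts of the muscle in both groups, and its mean rose 4.12-fold (log2 fold change 2.04, SE 0.39, adjusted p = 0.000617). The peak at chr12:23840390-23841131 on the − strand went from 501, 408 and 491 CPM to 26511, 8801 and 9103 CPM. Its mean of 14805 ± 10139 (SD, n = 3) was 31.7 times the control mean of 466 ± 50.9, and the log2 fold change was 4.99 (SE 0.50, adjusted p = 3.51e-06). At chr8:128711971-128712139 on the − strand the controls held 152, 117 and 224 CPM and the R1 libraries 5711, 1793 and 1565 CPM. The log2 fold change there was 4.20 (SE 0.63, adjusted p = 9.21e-05). Without U18 the log2 fold changes of the last 2 peaks were 4.26 and 3.35, and both stayed called. U18 was the highest library in each of these 3 peaks, and the lowest R1 library lay above the highest control.

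A pair of wide peaks on the − strand of chromosome 20 rose together. At chr20:4877374-4879965 the controls held 66.2, 47.9 and 57.2 CPM and R1 7516, 1019 and 2140 CPM, with a log2 fold change of 5.96 (SE 0.74, adjusted p = 1.93e-05). At chr20:2699756-2701913 the controls held 67.6, 47.9 and 61.7 CPM and R1 7466, 997 and 2097 CPM, with a log2 fold change of 5.90 (SE 0.76, adjusted p = 2.41e-05). Their raw tag counts ran in parallel, with a ratio of 0.98 to 1.08 in every one of the 6 libraries. The study allowed a read to map to several places, and how such reads were counted is not given in the sources used here. Whether the peaks share tags was not tested, and the pair is uncertain as 2 separate rises. Without U18 the log2 fold changes were 4.79 and 4.71.

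**Figure D2:**
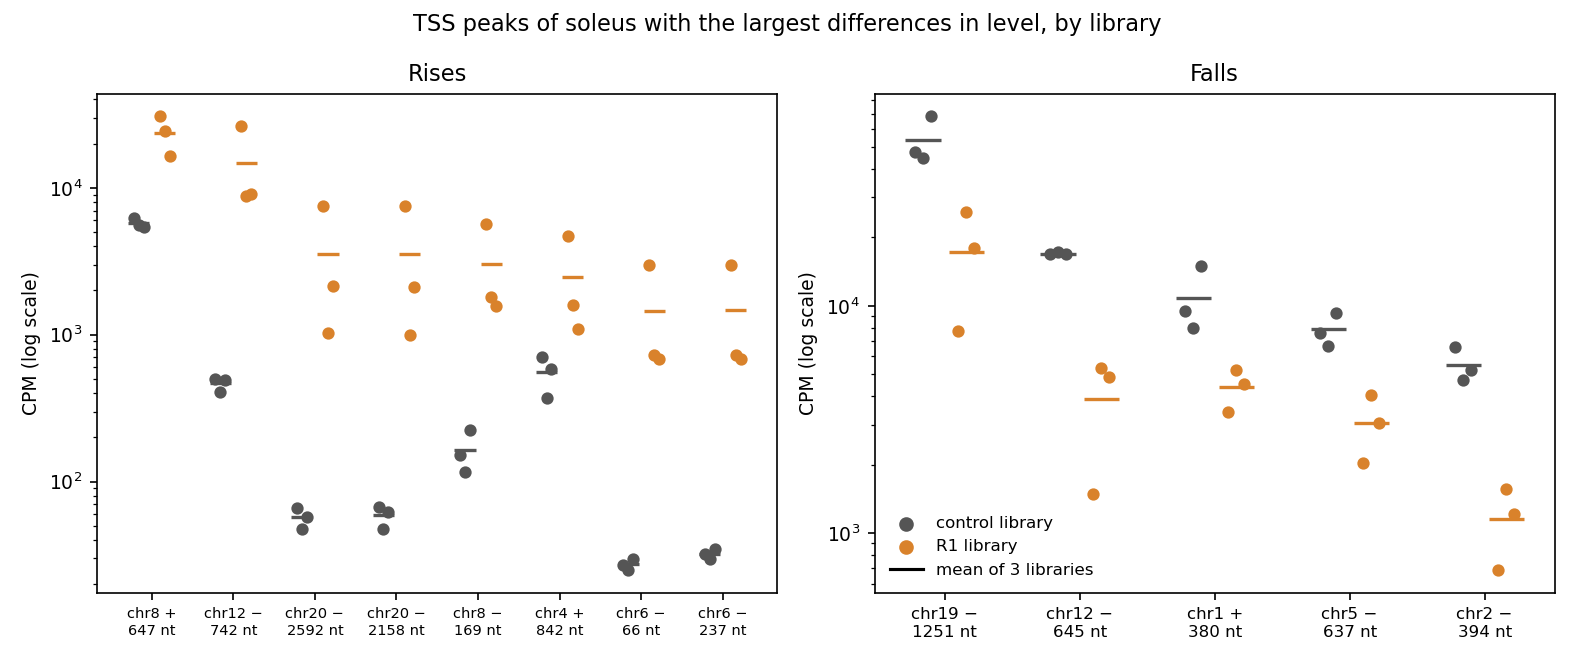
CPM (log scale) of named TSS peaks of soleus in each of the 3 control and 3 R1 libraries, with horizontal lines at the group means; the label gives chromosome, strand and width. In all 13 peaks the groups are apart, and in the rises 1 R1 library (U18) lies above the other 2.

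The largest rises by ratio were peaks that control soleus did not use. Of all rises, 74 had no tag in any control. The 8 largest by fitted log2 fold change, among those with no overlap of the groups and at least 10 CPM in a group, were all of this kind. A floor of 3 tags over the 3 controls corresponds to 0.112 CPM, and folds are given against it as lower bounds that cover counting error only. The highest was the 22 nt wide peak at chr20:4958731-4958752 on the − strand, with 2660 CPM in U18, 316 in U20 and 0.325 in U21. The R1 libraries thus ranged from very high to nearly silent, and the mean of 992 ± 1453 CPM (SD, n = 3), at least 8850-fold higher than the floor, rests on U18 and U20. Its adjusted p was 0.0111. The other 7 were of moderate level and used by every R1 rat. These 7 reached 10 CPM in no other soleus group. For such peaks the entry rule given above favours low levels outside R1, so their low control level is partly a condition of entry. At chr14:34354461-34354544 (+) the R1 libraries held 98.9, 22.0 and 20.4 CPM, at least 420-fold above the floor (adjusted p = 6.77e-05). At chr3:149800130-149800320 (−) they held 82.1, 19.9 and 20.4 CPM, at least 364-fold higher. At chr19:29201416-29201502 (−) they held 50.3, 30.6 and 15.8 CPM, at least 288-fold higher. For the peaks at chr13:36377453-36377829 (+), chr13:50921094-50921134 (+), chr12:45905184-45905261 (−) and chr8:5734302-5734392 (+) the bounds were 273-, 259-, 234- and 224-fold, and R1 levels ran from 11.7 to 61.2 CPM. Without U18 the bound for chr20:4958731-4958752 was 1409-fold, and those of the 7 others ran from 116- to 207-fold. The adjusted p of these 7 peaks lay between 2.25e-05 and 0.000349. DESeq2 gave the same direction but an adjusted p of 0.117 for chr12:45905184-45905261.

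Neighbouring peaks tended to share a direction. Peaks of a strand within 10 kb of each other formed 7744 neighbourhoods, of which 908 held at least 2 tested peaks and 233 at least 2 called ones. In 132 of these the called peaks were all rises, in 87 all falls, and in 14 both occurred. Tags inside a transcribed gene downstream of its main start are common in CAGE, so the peaks of a neighbourhood are not independent starts of equal standing.

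The neighbourhood with the most rises, a 33.9 kb stretch on the + strand of chromosome 4 (chr4:56710804-56744718), held 15 peaks, of which 14 rose. Its first peak, chr4:56710804-56711645, was by far the strongest, with 707, 371 and 582 CPM in the controls and 4724, 1594 and 1091 CPM in R1 (log2 fold change 2.16, SE 0.52, adjusted p = 0.00368; 1.28 without U18). The 13 further rises stood at 0.558 to 29.7 CPM in the controls, with log2 fold changes between 1.78 and 2.65. The last peak of the stretch held 61.4, 68.1 and 70.8 CPM in the controls and 51.8, 64.7 and 71.8 CPM in R1, with a log2 fold change of −0.09 (SE 0.21, adjusted p = 0.765).

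On the − strand of chromosome 6, 2 neighbourhoods of 8 peaks each (chr6:135045020-135050425 and chr6:135107489-135113023) rose in full. The summed level of the first was 31.3, 30.6 and 33.7 CPM in the controls and 3433, 815 and 770 CPM in R1, and that of the second 37.4, 36.8 and 37.9 against 3441, 829 and 774 CPM. Most of it came from the outermost peak at the 5′ end of each, chr6:135050360-135050425 (log2 fold change 5.74, SE 0.54, adjusted p = 2.33e-06) and chr6:135112787-135113023 (5.52, SE 0.52, adjusted p = 2.56e-06). Without U18 these log2 fold changes were 4.68 and 4.47. The 8 peaks of one neighbourhood lay 62423 to 62469 nt from those of the other, in the same order. The tag counts of the 2 outermost peaks had a ratio of 1.00 to 1.19 in the 6 libraries. As on chromosome 20, whether the pairs share tags was not tested, and they are uncertain as 2 separate responses.

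A stretch of 11.1 kb on the + strand of chromosome 5 (chr5:57028361-57039447) held 7 peaks that all rose, from a sum of 41.4, 52.2 and 45.4 CPM to 3527, 790 and 928 CPM. Its peaks had log2 fold changes of 4.20 to 6.02. On chromosome 1 (chr1:104147252-104166599, −) all 6 peaks rose, from 54.6, 55.4 and 78.2 CPM in all to 358, 297 and 219 CPM. There the 3 R1 rats were closer to each other than in the other stretches.

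Among the falls, the largest loss of level was at chr19:56676367-56677617 on the − strand, one of the strongest starts of the muscle. The controls held 47684, 44511 and 68223 CPM and the R1 rats 7736, 25877 and 17892 CPM, so that the mean of 53473 ± 12872 (SD, n = 3) in control was 3.11 times that of 17169 ± 9092 in R1. The log2 fold change was −1.64 (SE 0.36, adjusted p = 0.00182). At chr12:39958724-39959368 (−) the 3 controls lay close together, at 16880, 17162 and 16819 CPM, and R1 held 1481, 5337 and 4841 CPM (log2 fold change −2.13, SE 0.41, adjusted p = 0.000784). At chr2:88135192-88135585 (−) the level went from 6601, 4694 and 5227 CPM to 687, 1567 and 1216 CPM (−2.25, SE 0.39, adjusted p = 0.000285). U18 was the lowest library in each of these 3 peaks, as it was the highest in the rises above.

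At chr1:72889011-72889390 (+) the controls held 9456, 7968 and 14908 CPM and R1 3414, 5211 and 4538 CPM, with a log2 fold change of −1.30 (SE 0.32, adjusted p = 0.00413). At chr5:59025390-59026026 (−) they held 7603, 6682 and 9306 CPM and R1 2041, 4062 and 3040 CPM, with a log2 fold change of −1.37 (SE 0.28, adjusted p = 0.0012). The groups did not overlap at either peak. Both calls sat close to the fold threshold: without control U8 the log2 fold changes were −0.997 and −1.24, and without R1 U18 −1.14 and −1.15, with adjusted p between 0.00723 and 0.0351. With the totals of peak tags as library sizes they were −1.04 and −1.10, and with the tags at all positions −0.95 and −0.99, under the fold threshold in each case. In a fit of all 42 libraries without lane chr1:72889011-72889390 had an adjusted p of 0.0681.

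Some of the falls lay together in long stretches. On the − strand of chromosome 15, 44 of 54 peaks in 50.1 kb (chr15:33607830-33657899) fell and all 54 log2 fold changes were negative, with a median of −1.57. The summed level was 4268, 5048 and 2692 CPM in the controls and 1056, 1518 and 1456 CPM in R1. Its strongest called peak, chr15:33646731-33646953, went from 320, 373 and 188 CPM to 74.4, 141 and 119 CPM (log2 fold change −1.39, SE 0.35, adjusted p = 0.00483). The fold of that peak came under the threshold without control U7 (−1.21), without R1 U18 (−1.17), with the totals of peak tags as library sizes (−1.11) and with the tags at all positions (−0.95).

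On the − strand of chromosome 3, 3 stretches of 123, 146 and 198 kb held 143, 120 and 101 tested peaks, of which 36, 33 and 23 fell and none rose. All 364 log2 fold changes were negative, with medians of −1.38, −1.33 and −1.01. In the first (chr3:63565208-63687880) the controls differed among themselves, at 13830, 4355 and 9571 CPM in all against 5085, 2710 and 2989 CPM in R1, so control U7 lay below R1 U18. The same held in the second (chr3:63700586-63846328), at 9740, 3142 and 7899 CPM against 4202, 2260 and 2467 CPM. The 5726 nt wide peak at chr3:63569682-63575407 held 1342, 464 and 899 CPM in the controls and 468, 239 and 285 CPM in R1 (log2 fold change −1.45, SE 0.55, adjusted p = 0.0454). The groups overlapped at this peak, and its adjusted p was 0.187 without control U6, 0.0781 without control U8, 0.142 without R1 U20 and 0.117 without R1 U21. It was 0.0872 with the totals of peak tags as library sizes and 0.108 with the tags at all positions. In the third (chr3:37658128-37855961) the groups did not overlap, at 3735, 3432 and 3088 CPM against 1977, 1878 and 1621 CPM. Of the 124 falls on chromosome 3, 92 lay in these 3 stretches. Outside them 5.36% of the peaks of this chromosome fell and the median log2 fold change was 0.15.

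The falls with the largest ratio all came from the + strand of chromosome 10. A series of 113 peaks spread over 211 kb (chr10:53632914-53843893) held 82 tested peaks, of which 55 fell and none rose. It joins several neighbourhoods of the 10 kb rule. The one among the 3 with the most falls, chr10:53711560-53764563, held 55 tested peaks, of which 39 fell. In the RefSeq gene order of this chromosome (assembly GRCr8, used for the order of genes alone) the adult fast myosin heavy chain genes Myh2, Myh1 and Myh4 and the perinatal Myh8 come in this order, and the study's browser view places part of the series inside Myh4. The adult genes encode the motor proteins of the fast fibre types, which are a minority in soleus and the majority in EDL. The summed level of the series was 558, 885 and 168 CPM in the controls and 16.9, 4.30 and 34.4 CPM in R1. The lowest control lay above the highest R1 library, but the controls themselves differed several-fold, and an exact permutation test of the sums gave p = 0.1 (two-sided), the smallest that 3 against 3 samples allow. The control mean of 537 ± 359 (SD, n = 3) was 29.0 times the R1 mean of 18.5 ± 15.1. The peaks were joined with earlier results of these data known, so neither this ratio nor the permutation p is independent support for a fall.

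The strongest peak of the series, chr10:53727161-53727410, held 72.0, 114 and 17.4 CPM in the controls and 0.318, 0.0755 and 1.51 CPM in R1, a log2 fold change of −6.60 (SE 1.43, adjusted p = 0.00173). The 7 other peaks among the 8 largest falls under the conditions given above had log2 fold changes between −6.18 and −5.61 and adjusted p between 0.00204 and 0.00522. Peaks outside these conditions reached −7.41 in this series. Control U8 was the lowest control and R1 U21 the highest R1 library at each of these 8 peaks. Each of the 8 stayed called whichever of the 6 libraries was left out, with log2 fold changes of −9.70 to −4.91. The largest falls came without R1 U21, and the smallest without control U7 at 7 of the 8 and without R1 U20 at chr10:53735474-53735554. Inside the Myh4 window, 14 of 31 peaks were tested and 5 fell, and the sum of the window was 26.9, 43.0 and 7.29 CPM in the controls and 2.94, 0.528 and 4.38 CPM in R1. The other 17 peaks of that window had too few tags in soleus for a test. The study reports that on the first day of recovery the most used start of Myh4 became that of the full-length isoform. That switch was not tested here.

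Low values of this series also occurred in single rats of other groups. In single libraries of the other phases its summed level went down to 59.3 CPM at D1, 22.4 CPM at D3 and 87.6 CPM at D7, while other rats of the same phases held 835, 539 and 351 CPM. At R3 the libraries held 153, 178 and 521 CPM and at R7 353, 663 and 652 CPM. All 3 R1 rats were low, but 1 D3 rat lay between them.

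**Figure D3:**
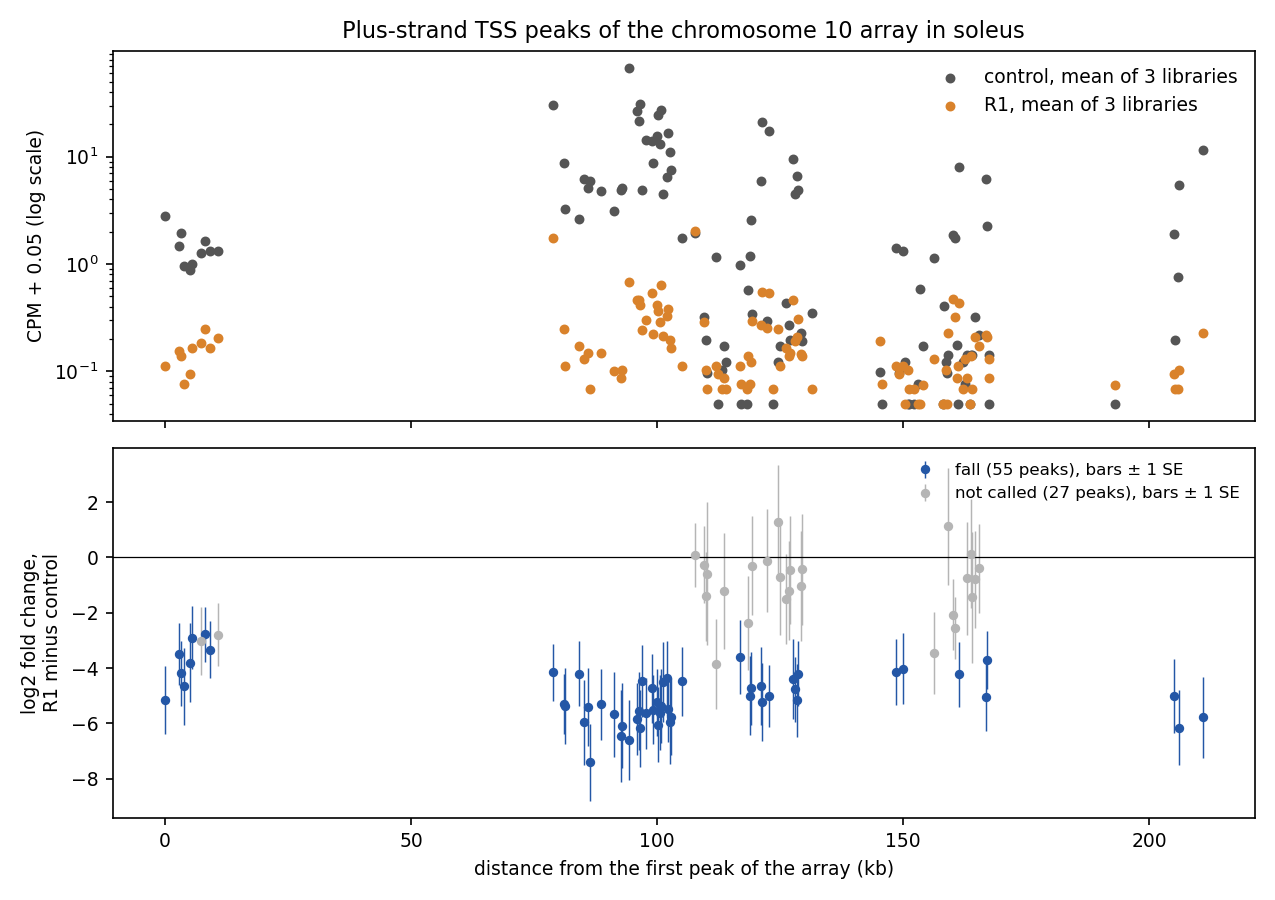
Plus-strand TSS peaks of the chromosome 10 series by distance from its first peak (kb). The upper panel shows the group means of 3 libraries in CPM with 0.05 added (log scale); the lower panel shows the log2 fold change of the 82 tested peaks ± 1 SE, with 55 falls in blue and 27 peaks that were not called in grey.

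One peak lay in the window that the study shows for Rtkn. At chr4:114835675-114836032 (+) the controls held 0.942, 1.12 and 0.875 CPM and R1 15.3, 3.02 and 3.73 CPM, with a log2 fold change of 2.90 (SE 0.75, adjusted p = 0.0059). The groups did not overlap, and the level of U18 was several times that of the other R1 rats.

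The R1 values were next set beside the other phases, each compared with the same controls. Among the peaks that rose at R1 the median log2 fold change against control lay between −0.05 and 0.09 during unloading (0.00 at D7), stood at 2.21 in R1 and was 0.62 in R3 and 0.61 in R7. Among those that fell it was −0.20, −0.53 and −0.36 in D1, D3 and D7, −1.68 in R1 and was −0.89 in R3 and −0.63 in R7. The medians over all tested peaks lay between −0.03 and 0.05 in every phase. The lists were chosen on R1 against the same controls that every phase is compared with, so nothing is read from these medians.

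At the end of unloading 12 of 9844 peaks (0.122%) were called against control, while 2286 (23.2%) were called between R1 and D7. The soleus D7 libraries were all in lane 3, so lane and group cannot be told apart in either comparison. They held 3385927 to 8705549 tags in peaks, each fewer than any R1 library. The 12 calls therefore do not show an absence of change at D7. At chr8:55178466-55179112 the mean was 2819 CPM at D7 and the log2 fold change of R1 against D7 was 3.08 (SE 0.40, adjusted p = 3.23e-05). At chr12:23840390-23841131 it was 693 CPM at D7, 14805 CPM at R1 and 672 CPM at R3. At chr20:4877374-4879965 the means were 50.1 CPM at D7, 3558 CPM at R1 and 49.6 CPM at R3, and 6.27 CPM at D1. The first peak of the chromosome 6 neighbourhoods, chr6:135050360-135050425, held 16.7 CPM at D7, 1461 CPM at R1 and 38.8 CPM at R3. At these peaks the high level was seen on the first day of recovery, and the libraries 2 days later were near the level of D7 or between it and R1. They were chosen for their rise at R1, which favours a maximum there, so no time course is read from them. The same limit applies to the falls. At chr19:56676367-56677617 the means were 53473 CPM in control, 28568 CPM at D7, 17169 CPM at R1, 38676 CPM at R3 and 60449 CPM at R7, and the log2 fold change of R1 against D7 was −0.73 (SE 0.35, adjusted p = 0.102). At chr12:39958724-39959368 they were 16954, 7009, 3886, 11558 and 19469 CPM, with −0.85 (SE 0.40, adjusted p = 0.0975) between R1 and D7. There D7 against control gave −1.27 (SE 0.40, adjusted p = 0.201), not called though every D7 library lay below every control. At chr1:72889011-72889390 the D7 mean of 11078 CPM was close to the control mean of 10777 CPM, and R1 against D7 gave −1.34 (SE 0.32, adjusted p = 0.00363).

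**Figure D4:**
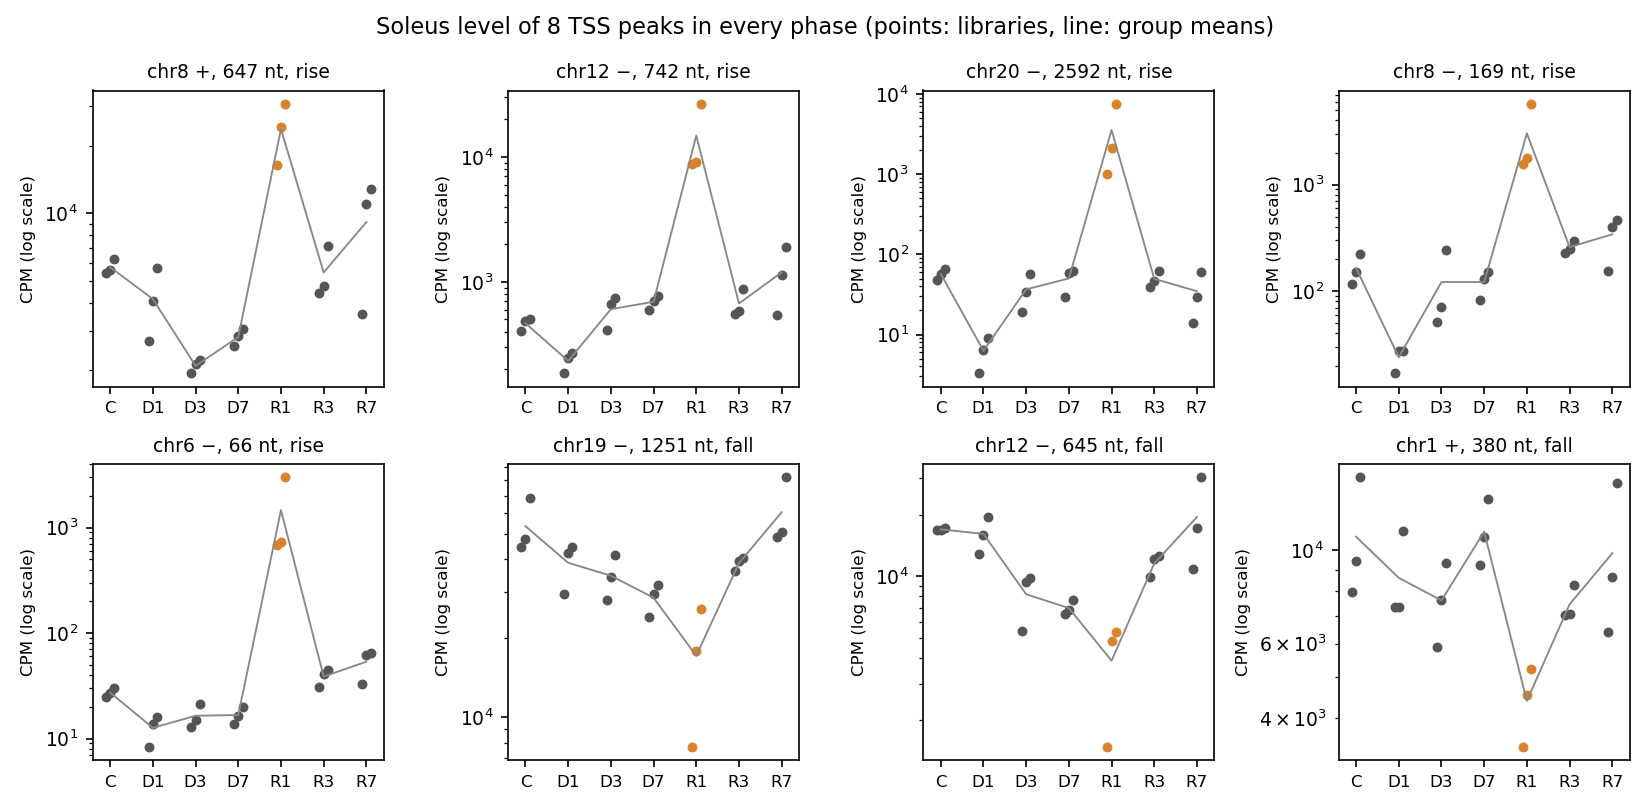
Level of 8 TSS peaks of soleus in CPM (log scale) in the control group (C) and each phase, with a point for each library and a line through the means of 3 libraries; R1 is in orange. The 5 rises peak at R1, where every library is above all others of that panel, and the 3 falls have their lowest mean there. The peaks were chosen for their change at R1, which favours this shape.

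The EDL of the same rats, sequenced in the same lanes, gave 0 calls of 9341 tested peaks (0.0%) between R1 and control by edgeR, with an unadjusted p under 0.05 in 900 of them; no other tool was run on this comparison. These EDL libraries held 2229492 to 10694483 tags in peaks, each fewer than the soleus library of its rat. The 0 calls therefore do not show an absence of change in EDL. The peaks that rose in soleus had a median log2 fold change of 0.22 in EDL (1067 of the 1447 could be tested there) and those that fell −0.34 (777 of 847). The soleus medians of these tested peaks were 1.86 and −1.67. Peaks not called in soleus had a median of 0.02 in EDL. The lists were chosen on the soleus change, which favours large soleus medians. The difference between the changes of the muscles was tested as an interaction over all 42 libraries. It was positive, a larger rise or smaller fall in soleus, at 548 of 9944 peaks (5.51%) and negative at 472 (4.75%). The counts moved with single rats left out. The positive ones numbered 295 without U6 and 307 without U18, and the negative ones 135 without U6, 220 without U20, 232 without U7 and 277 without U8. Of the 1447 soleus rises 512 were among the positive ones, and of the 847 falls 336 among the negative ones. The interaction contains the soleus change on which these peaks were called. Their shared direction was thus largely set in advance, and nothing is read from these 2 counts. With the rat as a replicate block, which pairs the muscles of an animal, 1101 peaks were called in place of 1020. Of the named peaks, 2 changed sides of the threshold with the block: chr20:4958731-4958752 (interaction 11.53, adjusted p = 0.609; 11.50 and 0.0121 with the block) and chr10:104679828-104680021 (12.92, adjusted p = 0.0253; 13.11 and 0.0872 with the block).

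At chr12:23840390-23841131 EDL held a mean of 139 CPM in control and 147 CPM at R1, and the change in soleus was larger by 4.81 on the log2 scale (SE 0.58, adjusted p = 1.26e-06). The interaction was 5.09 (SE 0.55, adjusted p = 2.44e-07) at chr6:135050360-135050425, 7.43 (SE 0.88, adjusted p = 1.26e-06) at chr20:4877374-4879965 and 4.22 (SE 0.85, adjusted p = 0.00148) at chr8:128711971-128712139. The value at chr20:4877374-4879965 also holds an uncalled EDL change of −1.55 (SE 0.48, adjusted p = 0.291). At chr8:55178466-55179112, the rise with the largest gain, EDL went from 834 to 1823 CPM (log2 fold change 1.13, SE 0.43, adjusted p = 0.428) and the interaction was 0.82 (SE 0.59, adjusted p = 0.394), so a difference between the muscles was not shown there. Of the strongest falls, chr12:39958724-39959368 had EDL means of 616 CPM in control and 2493 CPM at R1 (log2 fold change 2.02, SE 0.65, adjusted p = 0.325). The EDL controls held 422, 697 and 729 CPM and EDL R1 532, 2625 and 4323 CPM, so U18 lay within the controls. The peak fell in soleus, and the interaction of −4.23 (SE 0.82, adjusted p = 0.001) also holds this uncalled EDL change. At chr19:56676367-56677617 EDL held 46199 CPM in control and 38820 CPM at R1, and the interaction was −1.48 (SE 0.47, adjusted p = 0.0366). In the chromosome 10 series chr10:53727161-53727410 held 131 CPM in EDL controls and 71.5 CPM in EDL at R1, and the interaction was −5.80 (SE 1.51, adjusted p = 0.0108). The neighbourhood that holds the Myh4 window, chr10:53778241-53800524, was lower in EDL at R1 as well. Its sums were 2975, 3437 and 3018 CPM in the EDL controls and 1481, 1689 and 900 CPM in EDL R1. In the other neighbourhoods of the series the EDL groups overlapped, and none of these sums was tested.

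**Figure D5:**
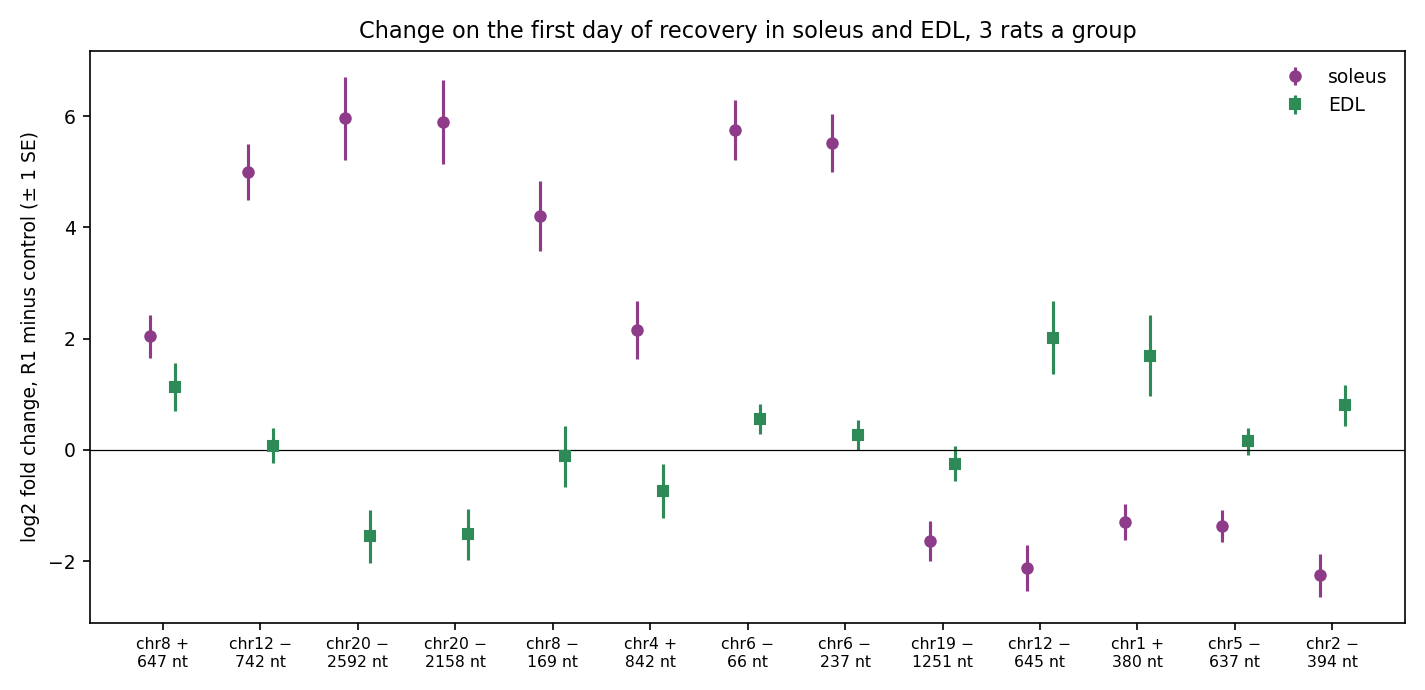
Fitted log2 fold change, R1 minus control, ± 1 SE in soleus (circles) and EDL (squares) of 13 named TSS peaks, labelled by chromosome, strand and width. The soleus values lie above 2 in the 8 rises and below −1 in the 5 falls, and no EDL value was called.

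Among peaks called in both tests, the largest interaction values belonged to peaks that were nearly silent in EDL. The largest positive ones were chr13:27449917-27449943 (+), with 36.9, 6.49 and 15.9 CPM in the R1 soleus libraries, chr6:60151597-60151650 (−), with 14.1, 1.89 and 3.30 CPM, and chr10:104679828-104680021 (−), with 44.2, 14.3 and 11.5 CPM. No soleus control held a tag at any of them, and the EDL means were 0.28 CPM or less in both groups. In soleus they reached 10 CPM at R1 alone. The entry rule given above favours low levels in the other groups for such peaks. Nothing is therefore read from these low levels or from the interaction calls that rest on them. The largest negative ones were chr9:82752012-82752306 (+), chr10:53636857-53636988 (+) and chr15:33613885-33613952 (−), with EDL means of 0.645 CPM or less. No EDL control held a tag at the first and the last of these, and the size of both interactions follows the prior count of the fit. At chr9:82752012-82752306 the soleus controls held 1.80, 1.26 and 10.8 CPM and R1 0.636, 0.377 and 0.811 CPM, and without control U8 its log2 fold change went from −2.85 to −1.32 (adjusted p = 0.221); without R1 U20 its adjusted p was 0.0611. At chr10:53636857-53636988 a single tag was counted in the 3 R1 libraries against 22 in the controls, a ratio of 36.4 after scaling to the pooled library sizes with an exact 95% counting interval of 5.89 to 1503. Its adjusted p without R1 U21 was 0.0543. At chr15:33613885-33613952 soleus went from 22.8, 21.6 and 12.7 CPM to 5.25, 6.04 and 5.90 CPM.

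Few peaks were called for a change in the position of the starts. In each of 8156 peaks with at least 20 tags in every control and R1 library, the share of tags at the main position, taken from the other soleus libraries, was compared with limma. The share was lower at R1 in 21 peaks (0.257%) and higher in 4 (0.049%), at an adjusted p under 0.05 and a difference in log2 odds over 1. The main position came from other phases, so a start used mainly at R1 shows as a lower share. Nothing is therefore read from the balance of 21 and 4 or from the median shares below. An unadjusted p under 0.05 was found in 961 peaks, and the 25 calls became 67 with a pseudocount of 2 tags and 10 to 16 with 1 library left out (10 without control U6 or R1 U20). The median share over all peaks was 22.1% to 22.6% in the controls and 21.5% to 21.6% in R1, and in 75.3% of the peaks the summed controls and the summed R1 libraries had the same top position. In 441 peaks the top position differed by over 50 nt. Of the 25 called peaks, 17 also rose in level and none fell. The shares of rises and falls among the 8156 peaks are not given here, so nothing is read from these counts.

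In the largest shift, at chr19:24747162-24747481 (+), 26.1%, 36.6% and 28.9% of the control tags but 0.935%, 3.07% and 2.68% of the R1 tags were at position 24747255, and the R1 top position lay 22 nt downstream (difference −4.44, SE 0.45, adjusted p = 6.90e-05). The whole peak rose from 38 to 69 tags in the controls to 717 to 3529 tags. At chr3:55909724-55911280 (+) the control tags were deep, 3206 to 7527, and 52.1%, 51.5% and 59.0% of them lay at position 55910096. In R1 the share was 4.68%, 9.22% and 10.2%, and the top position lay 214 nt upstream (difference −3.84, SE 0.32, adjusted p = 4.90e-06). The level of this peak also rose, with a log2 fold change of 1.95. At chr12:6341640-6342061 (−) the share went from 31.3%, 37.1% and 37.0% to 3.61%, 4.45% and 3.22%, with the R1 top 41 nt downstream (adjusted p = 0.000124). These 3 shifts stayed called with any 1 library left out.

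The shift at chr15:42652983-42653292 (+), from 62.9%, 30.0% and 39.1% to 12.97%, 5.65% and 7.87%, had an adjusted p of 0.014, and 0.0531 to 0.0964 without control U6, control U8, R1 U20 or R1 U21. At chr20:7132993-7133152 (+) the share went from 21.1%, 23.4% and 38.8% to 2.16%, 7.95% and 5.47% (adjusted p = 0.0191), and the adjusted p was 0.0502 to 0.146 without any 1 library other than R1 U20. Of the 4 peaks with a higher share, chr1:167197491-167197599 (+) was not called in level (log2 fold change 0.13, adjusted p = 0.655), while the share at its main position went from 34.5%, 42.8% and 33.2% to 73.5%, 71.8% and 64.9% (difference 2.02, SE 0.31, adjusted p = 0.00489). The top position moved there by 1 nt. At chr8:116325216-116325337 (+) the share went from 6.56%, 12.5% and 8.59% to 30.7%, 38.6% and 32.8%, again 1 nt apart (adjusted p = 0.00768; 0.0628 without control U6 and 0.0537 without R1 U20). The shares at chr3:171134657-171134742 (−) and chr15:19876077-19876420 (−) went from 3.23% to 4.26% up to 24.2% to 31.7%, and from 45.3% to 52.5% up to 67.8% to 69.8%. The call at chr3:171134657-171134742 was lost without any 1 of the 6 libraries (adjusted p 0.0566 to 0.113), and that at chr15:19876077-19876420 was lost without control U6 or U7 or any R1 library (0.0525 to 0.0927).

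The shares of rises and falls were also counted by class of peak. In the lowest quartile of tested peaks by mean level over the 21 soleus libraries 30.1% rose, against 11.1%, 9.47% and 8.13% in the next 3 quartiles. The share of falls was 8.05% to 8.98% in all 4. The lowest quartile held 733 of the 827 tested peaks that reached 10 CPM in soleus R1 libraries alone, and 624 of the 827 rose. The shares without these peaks were not counted by quartile. Nothing is therefore read from the higher share of rises in the lowest quartile. Over the width quartiles 13.3% to 15.4% rose and 6.95% to 11.2% fell. Peaks with an opposite-strand neighbour within 400 nt upstream rose in 9.11% of 615 cases and fell in 6.67%, against 15.1% and 8.73% of the other 9229. The levels of both sets, and their shares of peaks that entered through soleus R1 alone, were not compared. Nothing is therefore read from this difference. Of 266 such divergent pairs with both members tested, both rose in 6, both fell in 6, 1 member alone was called in 51, and no pair had a rise and a fall. By chromosome the share of rises ran from 7.49% on X to 23.9% on chromosome 13, leaving out Y with 2 tested peaks, and the share of falls from 2.49% on chromosome 6 to 19.1% on chromosome 15. How the 827 peaks divide over the chromosomes was not counted, so nothing is read from these shares. Of the 60 falls on chromosome 15, 44 lay in the 1 stretch described above.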

How the data were processed

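CAGE libraries (nAnT-iCAGE, total RNA) were made by the authors from soleus and EDL of 21 rats. The deposited values are counts of 5′ tags per peak and per position on Rnor_6.0; per the study's methods the authors trimmed reads and aligned them with STAR allowing several places per read; per the file headers the counts are of rescued tags, and what rescue did is not given in the sources used here. The submitters' processing notes name Trimmomatic 0.38, BWA and HISAT2, and the sources were not reconciled. Replicates were not pooled. Deposited normalized columns were not used, and 0 columns were unmatched to samples.

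Groups came from the labels. Counts were filtered by expression (filterByExpr), TMM-scaled and fitted with edgeR 4.0.16 in R 4.3.3 over all 21 libraries of a muscle; the difference between muscles was an interaction over 42 libraries. Calls needed an adjusted p under 0.05 and a 2.38-fold change, the study's cutoffs (the study used DESeq2). The position of starts (share of tags at the main position, 0.5 added, at least 20 tags per library) was tested with limma 3.58.1 on log2 odds. DESeq2 1.42.0, other scalings, no filter, the 6 libraries alone, lane, left-out libraries, an animal block, pseudocounts and distances were alternatives; tags at all positions as library sizes were added after seeing the data. The scripts were tested on simulated data.

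Named were the 8 largest rises and 8 largest falls with no overlap of the groups and at least 10 CPM in a group, the 5 of each with the largest difference in CPM, the strongest called peak of the 3 neighbourhoods with most rises and the 3 with most falls, up to 5 start shifts in each direction, the 3 largest interactions in each direction, and the windows of Myh4 and Rtkn; the stretches on chromosomes 1 and 5 and the further one on chromosome 3 were described after their values were seen. The chromosome 10 series joins several neighbourhoods and was put together outside these rules. The members and lists were chosen with earlier results of these data known. Gene lists and cell type markers were not analysed here, since no annotation of Rnor_6.0 was used, and no sequences are given. A number marks 1 rat in both muscles, so soleus and EDL are paired by animal; the correlation of their deviations from the group means was 0.04 to 0.40 over the 6 rats. Depth was 6823879 to 15973060 tags in peaks in the soleus libraries compared and 2229492 to 10694483 in the EDL libraries of the same rats. Intervals and floors cover counting error only.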

Additional observations from a re-analysis of the deposited data

Results flagged for a closer look

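The change on the first day of recovery differed between soleus and EDL, by the interaction test of edgeR's quasi-likelihood fit over 42 libraries, at 28 of the 37 named peaks. Over all 9944 tested peaks 5.51% were higher and 4.75% lower in soleus. The named peaks were chosen for large soleus changes or for this difference, so nothing is read from their share. Values are log2 differences, soleus change minus EDL change. Among rises they were 4.81 at chr12:23840390-23841131, 7.43 at chr20:4877374-4879965, 7.33 at chr20:2699756-2701913, 4.22 at chr8:128711971-128712139, 2.79 at chr4:56710804-56711645, 5.09 at chr6:135050360-135050425 and 5.15 at chr6:135112787-135113023, with adjusted p from 2.44e-07 to 0.0117. In the same order the EDL log2 fold changes, none called, were 0.08, −1.55, −1.52, −0.12, −0.73, 0.56 and 0.27. These uncalled EDL changes are part of the interactions.

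At peaks with no tag in the soleus controls the interactions were 11.73 at chr13:50921094-50921134, 13.49 at chr13:27449917-27449943, 13.38 at chr6:60151597-60151650 and 12.92 at chr10:104679828-104680021. The size of these 4 follows the prior count of the fit and is no bound. Their EDL control means were 0.062, 0.062, 0.279 and 0.031 CPM, so the EDL part of each call rests on few tags. At chr3:149800130-149800320, with no tag in the EDL controls or EDL R1, an interaction of 11.35 was not called. The entry rule favours low levels outside soleus R1 for such peaks, so nothing is read from these calls.

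In the chromosome 10 series they were −5.80 at chr10:53727161-53727410, −5.55 at chr10:53729440-53729547, −5.58 at chr10:53733174-53733301, −5.35 at chr10:53735474-53735554, −5.37 at chr10:53728827-53729027, −5.64 at chr10:53843770-53843893, −5.26 at chr10:53730759-53730860, −5.36 at chr10:53733440-53733526 and −7.98 at chr10:53636857-53636988, the last with a single R1 soleus tag and an EDL control mean of 0.031 CPM.

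At the other falls they were −1.48 at chr19:56676367-56677617, −4.23 at chr12:39958724-39959368, −3.10 at chr1:72889011-72889390, −1.61 at chr5:59025390-59026026, −3.15 at chr2:88135192-88135585, −2.78 at chr15:33646731-33646953, −8.31 at chr9:82752012-82752306 and −7.42 at chr15:33613885-33613952. No EDL control held a tag at the last 2, and their size follows the prior count as well. The EDL log2 fold changes, none called, were 2.02 at chr12:39958724-39959368, 1.70 at chr1:72889011-72889390, 0.80 at chr2:88135192-88135585 and 1.29 at chr15:33646731-33646953. They were 0.15 at chr5:59025390-59026026 and −0.25 at chr19:56676367-56677617. These uncalled EDL changes are part of the interactions. On chromosomes 12, 1 and 15 EDL R1 U18 lay within the range of the EDL controls at these peaks. The same lanes separate R1 from control in both muscles. With the animal as a block the adjusted p at chr10:104679828-104680021 was 0.0872.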

How the results depend on the processing

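The 2294 calls in soleus became 10 with lane as a term (9 rises, 1 fall) and 3937 without the fold cutoff (2316 rises, 1621 falls); the other alternatives gave 1869 to 2499. Falls numbered 847, 482 with the totals of peak tags and 387 with tags at all positions as library sizes. DESeq2 gave 1436 rises and 1063 falls. The interaction gave 1020 calls, 430 to 795 with 1 rat left out (lowest without U6; 666 without U7, 637 without U18). Those higher in soleus numbered 548, 295 to 496 so (lowest without U6, 307 without U18). Those lower numbered 472, 135 to 334 so (lowest without U6, 232 without U7, 277 without U8, 220 without U20), and 311 with totals as library sizes. With the replicate block they numbered 1101, 589 higher and 512 lower, and no call of a named peak changed other than the 2 given above. Start positions gave 25 calls, 67 with a pseudocount of 2 tags and 10 to 16 with 1 library left out (10 without U6 or U20). Neighbourhoods with a rise and a fall numbered 14, 3 within 2 kb and 37 within 50 kb. The causes of these changes were not tested. Among named peaks no direction reversed. With lane added, 34 of 37 were no longer called. Depth limits peaks under 1 CPM, which rest on few tags.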
